A study of Mus musculus with 6 samples.

Results

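The EGR, NR4A and NFATc transcription factors and the calcineurin inhibitor Rcan1 were followed as a readout of receptor signalling in leukemic mouse pre-B cells with and without the adaptor Blnk. The 10 genes (Egr1, Egr2, Egr3, Nr4a1, Nr4a2, Nr4a3, Nfatc1, Nfatc2, Nfatc3 and Rcan1) were taken by name, and each had 1 probe annotated to it alone, out of 19938 genes measured in this way. The cells came from 4-week-old Balb/c mice labelled as Blnk knockout and carry BCR-ABL1, the oncogenic kinase made by the Philadelphia translocation, so both groups share the knockout and the oncogene. In the first group 3 samples received pMIG, a retroviral vector with GFP, and in the second 3 samples received Blnk (Slp65). RNA came from cells sorted for GFP 5 days after transduction. The labels do not say whether samples of a group were separate cultures or animals, so each p-value reflects sample-to-sample spread alone, and part of that spread may be technical.

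BLNK is the scaffold on which the pre-B cell receptor brings SYK, BTK and phospholipase C gamma together. Phospholipase C then releases calcium and diacylglycerol signals. Calcium activates the phosphatase calcineurin, which strips phosphates from NFATc proteins so that they enter the nucleus, while the diacylglycerol and RAS branch activates ERK and, through serum response factor, the EGR genes. NR4A genes, which encode orphan nuclear receptors, are switched on within minutes of antigen receptor engagement and are widely used as reporters of it. RCAN1 binds and inhibits calcineurin, and one of its promoters is itself driven by NFAT, so it is commonly read as an NFAT target. The arrays measured transcripts alone: neither calcium nor the location of NFATc proteins was measured.

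The sequences before the start of transcription show how the members differ in the elements that signalling is known to use. RefSeq promoter sequences (GRCm38.p6) were matched for 7 of the 10 genes, with 14 entries in all. Egr1, Egr3 and Nfatc1 were not matched. The 250 bases before each start were searched on both strands for the cyclic AMP response element TGACGTCA and its half-site TGACG (which lies inside it), the NFAT core GGAAA, the AP-1 site TGANTCA, the EGR site GCGNGGGCG, the NR4A site AAAGGTCA and the CArG box of serum response factor. Nr4a1, Nr4a2 and Nr4a3 each held 4 matches to the half-site, a number reached or passed by 0.137% of all promoter windows, whereas 17.8% held at least 1. The 3 NR4A promoters are shown for this shared feature, with the half-site (TGACG, or CGTCA where it lies on the other strand) in capitals. Nr4a1 lies at chr15:101266596-101266845 on the plus strand and Nr4a2 at chr2:57124004-57124253 on the minus strand, and both are given for all 250 bases. For Nr4a3 a stretch of 30 bases with 2 of the 4 half-sites is given, at chr4:48045083-48045112 on the plus strand.

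Nr4a1: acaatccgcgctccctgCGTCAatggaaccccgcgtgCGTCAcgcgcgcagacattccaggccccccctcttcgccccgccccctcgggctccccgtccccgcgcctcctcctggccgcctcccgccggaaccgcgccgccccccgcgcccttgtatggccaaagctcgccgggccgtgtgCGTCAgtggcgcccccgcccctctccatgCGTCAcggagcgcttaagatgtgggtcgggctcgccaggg

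Nr4a2: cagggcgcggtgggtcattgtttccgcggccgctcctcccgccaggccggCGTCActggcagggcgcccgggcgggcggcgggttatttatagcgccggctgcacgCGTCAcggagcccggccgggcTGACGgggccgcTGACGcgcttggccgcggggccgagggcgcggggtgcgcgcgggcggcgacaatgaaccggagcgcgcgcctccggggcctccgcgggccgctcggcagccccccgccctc

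Nr4a3: gtcccatgtCGTCAcatTGACGtctcgcat

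A CArG box was found in 4 of the 5 Egr2 entries, and in 1.47% of all windows. In 3 overlapping Egr2 entries the window also held 2 half-sites, at the same spacing from the box. These 3 entries thus appear to show the same box from different starts, and the 4 are not independent matches. A CArG box together with half-sites in any number was held by 0.170% of windows. The stretch of 30 bases with the CArG box and the nearer half-site in capitals, at chr10:67537794-67537823 on the plus strand, is shown because Egr2 had the largest difference of the 10 genes between the groups.

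Egr2: agtCCATATATGGgcagcgaCGTCAcgggt

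Rcan1 has 2 entries, and they differ. The first held none of the listed motifs. The second, which starts inside the gene, held 3 NFAT cores, 1 full TGACGTCA element and 1 AP-1 site. At least 3 NFAT cores were found in 6.39% of windows, and the 3 motifs together in 10 windows (0.0304%). All 250 bases before the second start are shown, at chr16:92400079-92400328 on the minus strand, because this promoter is known to be driven by NFAT, with the 3 motifs (on either strand) in capitals.

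Rcan1: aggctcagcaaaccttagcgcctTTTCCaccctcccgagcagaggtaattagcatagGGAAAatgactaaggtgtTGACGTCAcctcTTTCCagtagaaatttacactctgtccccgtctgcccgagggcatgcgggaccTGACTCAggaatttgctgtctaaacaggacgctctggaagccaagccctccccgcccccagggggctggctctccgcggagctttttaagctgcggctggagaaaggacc

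**Figure D1:**
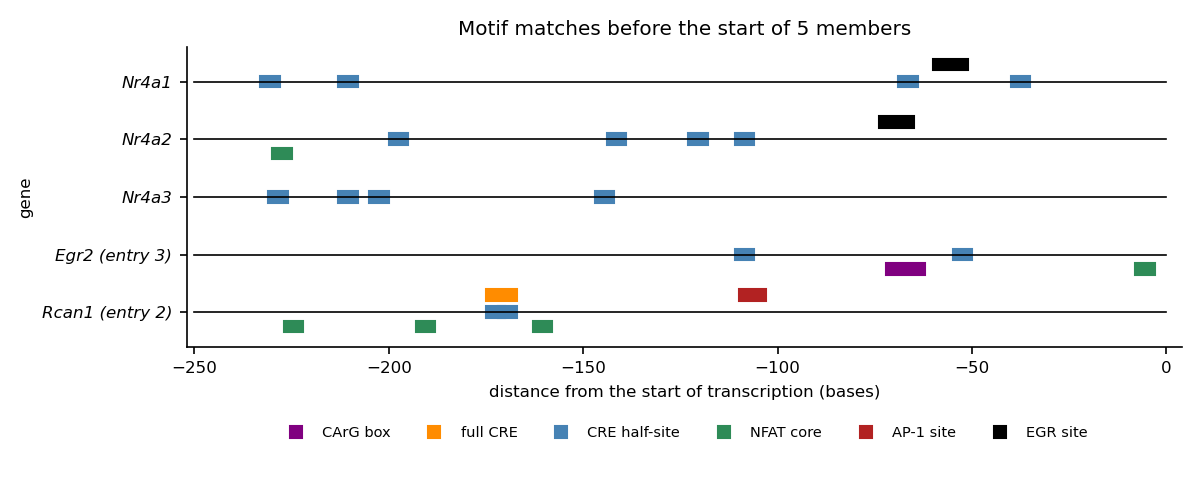
Positions of motif matches (coloured boxes) along the 250 bases before the start of transcription (x axis, distance in bases) of 5 members, for the third Egr2 entry and the second Rcan1 entry. Each NR4A line carries 4 blue half-sites, at different distances from the start, and the Rcan1 line carries 3 green NFAT cores.

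A motif match describes letters and does not show that a factor bound there. The NFAT core was also found in 55.6% of all windows, the EGR site in 4.70%, the AP-1 site in 6.75%, the full TGACGTCA in 1.55% and the NR4A site in 1.34%. The EGR site was matched once each in Nr4a1 and Nr4a2, and the NR4A site in none of the 14 entries.

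The arrays were alike in level, with median intensities of 67.0 to 70.0, and the lowest correlation between arrays of a group was r = 0.9951, computed across genes (not independent units). The Blnk probe read 970 ± 43.5 (SD, n = 3) with pMIG and 3026 ± 314 with Blnk, which fits the group labels. It does not check the knockout, since the sources used here do not say which part of the gene it reads. Of 11 measured markers of B-lineage and pre-B cells, the 2 brightest were Igll1 (10485 with pMIG, 9221 with Blnk) and Cd24a (5616 and 6319). The list holds Blnk itself, Cd79a, a signalling chain of the receptor that rose by 0.31 on the log2 scale (limma adjusted p = 0.0468, but 0.0678 to 0.151 with 1 array left out), and Vpreb1, a surrogate light chain that fell by 0.68 (adjusted p = 0.00976, up to 0.0688 with 1 array left out, and not passing without pMIG 2 or pMIG 3). The whole list summed to 34904 to 36221 with pMIG and 37197 to 38353 with Blnk, and the 8 markers that did not pass to 27422 to 28348 and 27565 to 27814. In this list 3 markers lay wholly higher with Blnk and 4 wholly lower, where 20.0% of all genes had groups without overlap. Of those that did not pass, Cd79b was higher (3930 and 5027), and Igll1, Ebf1 (2105 and 1769) and Vpreb2 (2712 and 2324) were lower. All 12 myeloid markers lay below the overall median intensity, led by Fcgr3 (57.0 and 62.0) and Mpo (44.3 and 44.0), with sums of 369 to 414 and 386 to 414. The 8 measured erythroid and megakaryocyte markers summed to 340 to 385 and 347 to 396, led by Itga2b (73.7 and 75.3) and Epor (69.0 and 73.0). The T and NK list summed to 1962 to 2094 and 2665 to 3242, a gap that lay in Cd2, a receptor also found on mouse B cells. Without Cd2 the other 10 summed to 566 to 647 and 557 to 617, with Cd8a (170.0 and 191.0) the brightest of them. Cd28 (175 and 126) was among these 10, and its groups did not overlap (log2 -0.49, limma adjusted p = 0.0852). The stromal and endothelial list summed to 1009 to 1089 and 1241 to 1358. This gap lay in Pecam1, which B cells also carry, and without it the other 11 summed to 502 to 622 and 501 to 588, led by Col1a1 (128 and 117). Cdh5 (39.3 and 47.0), a dim gene among these 11, had groups that did not overlap (log2 0.26, limma adjusted p = 0.248). The genes left out of the sums were those that passed in these data, so the likeness of what remained follows in part from that choice. Intensities of these bulk samples cannot tell fewer cells of a type from less RNA per cell.

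Of the 10 genes, 4 were higher with Blnk and 0 lower: Egr1, Egr2, Nr4a1 and Nfatc1. Over all genes 3.61% passed the same test, 2.51% upward and 1.10% downward (limma, two-sided, Benjamini-Hochberg adjusted p under 0.05 over all 19938 genes). The mean log2 value was higher with Blnk for 9 of the 10, against 49.6% of all genes. Egr3 is among the 9 by a log2 difference of 0.0049 alone, with equal mean intensities. The signs of Egr3, Nfatc2 and Rcan1 turned under some other processing. The median log2 fold change of the 10 was 0.22 against 0.00 for all genes, whose interquartile range was -0.09 to 0.09. In 5 of the 10 every Blnk sample lay above every pMIG sample, which 11.8% of all genes did, and 0 of the 10 lay the other way round, as 8.15% of genes did; in either direction 20.0% of genes had groups without overlap. The 10 genes were chosen with earlier results of these data known, so these counts are descriptions and no test of whether such factors rose. The changes were small: the largest was 1.57-fold, for Egr2.

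**Figure D2:**
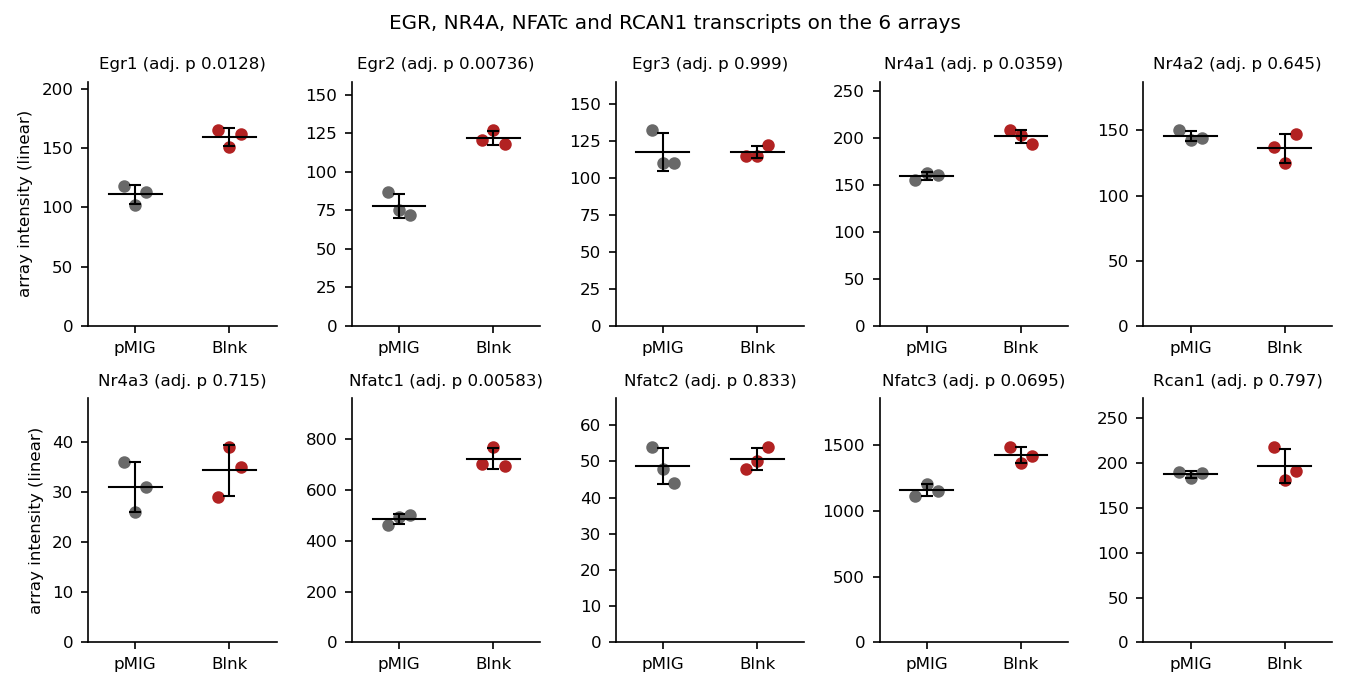
Linear array intensity (y axis, from 0, a separate scale for each gene) of the 10 genes in the 3 pMIG samples (grey) and the 3 Blnk samples (red); lines and bars are means and SD, and the limma adjusted p stands above each panel. The red points lie above all grey points for Egr1, Egr2, Nr4a1, Nfatc1 and Nfatc3, and mix with them for Egr3, Nr4a2, Nr4a3, Nfatc2 and Rcan1.

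EGR proteins are zinc finger factors made within minutes of ERK activation. Egr1, the prototype of the family (probe 10454782), read 118, 102 and 113 in pMIG samples 1 to 3 and 165, 151 and 162 in Blnk samples 1 to 3. The groups did not overlap, and the gap from the highest pMIG to the lowest Blnk sample (118 to 151) was wider than the range within either group. Its log2 fold change was 0.52 (SE 0.0808; limma adjusted p = 0.0128), a 1.44-fold rise with a 95% confidence interval of 1.26 to 1.64. Leaving out 1 array kept the value between 0.46 and 0.57, but the adjusted p rose to 0.0508 without pMIG 2, 0.0698 without pMIG 3, 0.0668 without Blnk 1 and 0.0739 without Blnk 3.

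Egr2, which restrains lymphocyte activation and is needed with Egr3 for normal lymphocyte development (probe 10363735), read 87, 75 and 72 with pMIG and 121, 127 and 118 with Blnk. Its pMIG samples stood just above the array medians, and the groups were again apart. The log2 fold change was 0.65 (SE 0.0883; limma adjusted p = 0.00736), a 1.57-fold rise (95% interval 1.36 to 1.81). The adjusted p was 0.0520 without pMIG 3 and 0.0557 without Blnk 2, with log2 fold changes of 0.59 and 0.62.

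Egr3 (probe 10416251), the close partner of Egr2, did not follow them. It read 132, 110 and 110 with pMIG and 115, 115 and 122 with Blnk, so that pMIG 1 was the highest of the 6 and the groups overlapped. The mean intensities were the same, 117 ± 12.7 and 117 ± 4.04 (SD, n = 3). The log2 difference of 0.00 (adjusted p = 0.999) had a 95% interval of -0.20 to 0.21, which does not reach the estimates of Egr1 or Egr2. Its sign was negative under repeated quantile normalization (-0.05) and with arrays centred on their medians (-0.03).

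NR4A receptors bind DNA without a known natural ligand, and their activity follows their abundance. Nr4a1 (NUR77, probe 10427035) read 155, 163 and 161 with pMIG and 208, 203 and 194 with Blnk. The samples within each group were close together, within 1.05-fold and 1.07-fold, and the groups were apart. The rise was 1.26-fold (95% interval 1.13 to 1.41; log2 0.34, SE 0.0665; limma adjusted p = 0.0359). This call was the least firm of the 4. It was lost with any 1 array left out (adjusted p between 0.0829, when Blnk 3 was dropped, and 0.133, when pMIG 3 was, log2 fold changes of 0.31 to 0.36), after repeated quantile normalization (0.0518) and with arrays centred on their medians (0.0784).

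Nr4a2 (NURR1, probe 10482772) was the one gene of the 10 with a lower mean in the Blnk samples. It read 150, 143 and 144 with pMIG and 137, 125 and 147 with Blnk. Blnk 3 lay within the pMIG range, so the groups overlapped. Its log2 difference was -0.10 (adjusted p = 0.645), with a 95% interval of -0.28 to 0.09.

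Nr4a3 (NOR1, probe 10504838) was dim, below the array medians in every sample, at 36, 26 and 31 with pMIG and 29, 39 and 35 with Blnk. The groups were mixed, and the residual spread between samples of a group was larger than for 92.4% of genes. At this level the rounding of the deposited values alone makes a step of 0.046 on the log2 scale. The 95% interval of its difference, -0.19 to 0.49 around 0.15 (adjusted p = 0.715), includes both no change and a rise as large as that of Nr4a1. The 4 half-sites before the start were thus shared by 1 gene that rose and 2 that did not pass.

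NFATc proteins are the calcium-regulated factors themselves, made in advance and held in the cytoplasm. Nfatc1 (probe 10459944), which differs from the others in that NFAT signalling is known to raise its own transcription, read 463, 492 and 502 with pMIG and 703, 769 and 695 with Blnk. The highest pMIG sample and the lowest Blnk sample were far apart compared with the range within either group. Nfatc1 rose 1.49-fold (95% interval 1.32 to 1.67; log2 0.57, SE 0.0739; limma adjusted p = 0.00583). It was the member that passed with each of the 6 arrays left out and under every other processing tried, with a highest adjusted p of 0.0447 and log2 fold changes from 0.53 to 0.60.

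Nfatc3 (probe 10574962) read 1113, 1205 and 1146 with pMIG and 1484, 1363 and 1413 with Blnk. Every Blnk sample was above every pMIG sample, yet the gene did not pass (log2 0.30, SE 0.0704; adjusted p = 0.0695). Its 95% interval before adjustment for the number of genes was 1.10-fold to 1.38-fold. It passed with dim genes left out (adjusted p = 0.0217), with 16 added before log2 (0.0242) and with a variance prior that follows the level (0.00286). Nfatc2 (probe 10489961) was dim, at 54, 48 and 44 with pMIG and 48, 50 and 54 with Blnk. Its groups overlapped, and the log2 difference was 0.06 (adjusted p = 0.833; 95% interval -0.16 to 0.28).

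Rcan1 (probe 10440993), the calcineurin inhibitor and a known NFAT target, did not pass. It read 190, 183 and 189 with pMIG and 218, 181 and 191 with Blnk. Blnk 1 was the highest of the 6 samples and Blnk 2 the lowest. The log2 difference was 0.07 (SE 0.0847; adjusted p = 0.797), with a 95% interval of 0.913-fold to 1.20-fold, and it was -0.01 without Blnk 1. The annotation used here names the gene and does not say which transcripts the probe reads. The intensity can therefore not be assigned to either of the 2 starts whose upstream sequences differ.

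**Figure D3:**
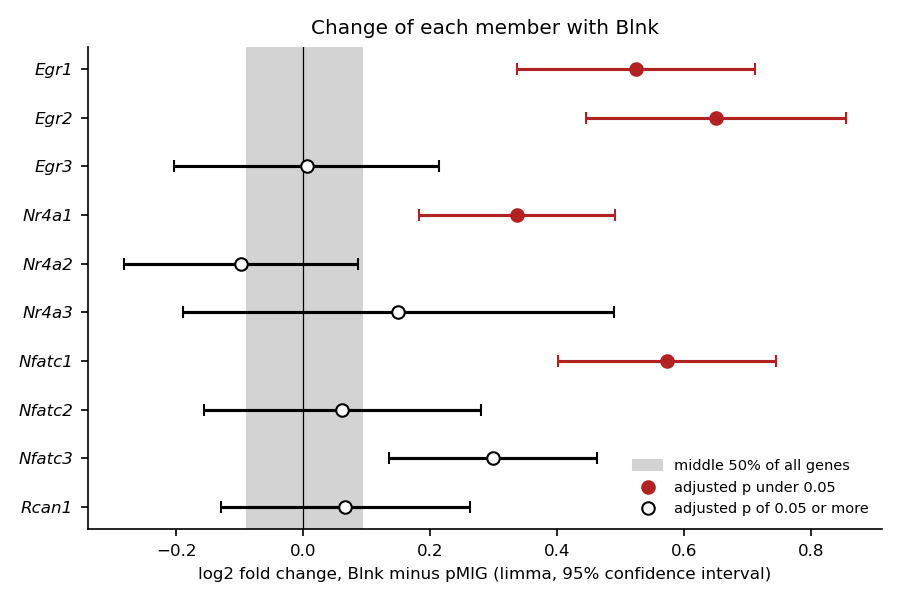
Log2 fold change (x axis, Blnk minus pMIG) of each of the 10 genes with the 95% confidence interval of limma; filled red points passed at an adjusted p under 0.05, and the grey band is the interquartile range of all genes (-0.09 to 0.09). The intervals of Egr1, Egr2, Nr4a1, Nfatc1 and Nfatc3 lie to the right of 0, and those of the other 5 genes cross it.

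Whether relatives changed unequally was tested on the ratio of 2 genes within each array, which does not depend on the scaling between arrays. There were 9 pairs within families, and the test was a two-sided exact permutation test, which with 3 against 3 samples cannot give a p below 0.1. The test could therefore make no call, and the values below are descriptions. Pairs of a family share genes, and most set a gene that passed against one that did not, so they are not independent of the single-gene results. The groups did not overlap for 6 of the 9 pairs (exact permutation p = 0.1, and 0.15 when adjusted over the pairs). Of single genes 20.0% did not overlap, which is another measure, and the share over all pairs of genes was not computed. The ratio of Egr2 to Egr3 was 1.56-fold higher with Blnk (log2 change 0.64, 0.60 to 0.70 with 1 array left out). With 16 added before log2 its change was 0.55. The ratio of Egr1 to Egr3 was 1.43-fold higher (0.52). The ratio of Egr1 to Egr2 overlapped between the groups (-0.13; exact permutation p = 0.6). Nr4a1 against Nr4a2 gave 1.35-fold (log2 change 0.44), and the log2 ratio lay between 0.05 and 0.19 with pMIG and between 0.40 and 0.70 with Blnk. The pairs of Nr4a3 with Nr4a1 (exact permutation p = 0.4) and Nr4a2 (0.5) overlapped. The ratios of Nfatc1 to Nfatc2 (1.42-fold), Nfatc1 to Nfatc3 (1.21-fold) and Nfatc3 to Nfatc2 (1.18-fold) had higher means with Blnk, without overlap between the groups.

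**Figure D4:**
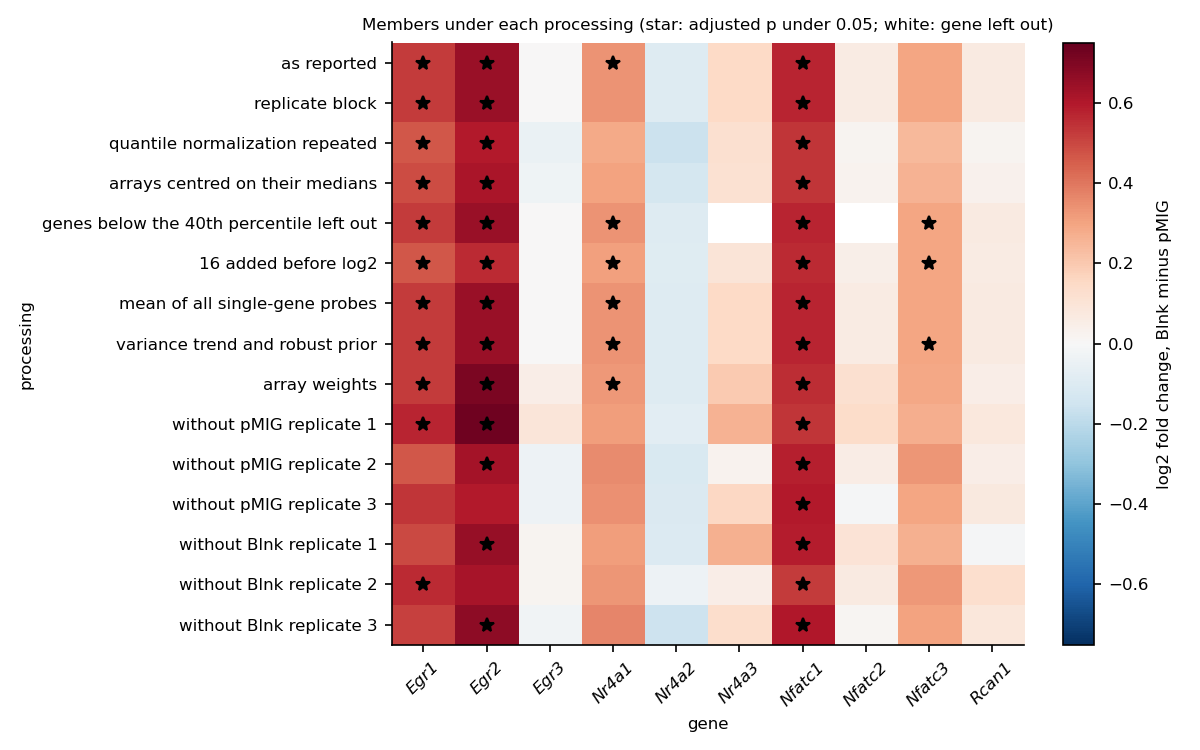
Log2 fold change (colour, Blnk minus pMIG) of the 10 genes (x axis) under the processing as reported and 14 alternatives (y axis); a star marks an adjusted p under 0.05, and white cells are genes left out as dim. The Nfatc1 column is starred in every line, the Nr4a1 column in 6 and the Nfatc3 column in 3.

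The genes that surround these factors mostly did not pass, but neither did most genes. Over all genes 3.61% passed, so a count of 0 in lists of this size is near that share. Of the 4 other members of the list of EGR genes and NAB co-repressors, 0 rose and 0 fell: Egr4, the fourth family member, stood at -0.12 on the log2 scale (adjusted p = 0.801) and Nab1, a co-repressor that binds EGR proteins, at 0.16 (adjusted p = 0.442). Of 11 factors upstream of NR4A genes or partnered with them, 0 rose and 0 fell by limma, with a median of -0.05. Mef2a (0.32, adjusted p = 0.0858) and Mef2c (0.23, adjusted p = 0.119), calcium-responsive activators of Nr4a1, and Hdac7 (-0.26, adjusted p = 0.161) and Hdac4 (-0.24, adjusted p = 0.200), the class of repressors that binds them, each had groups that did not overlap. On that list 2 of the 11 genes lay wholly higher and 3 wholly lower, where 20.0% of all genes had groups without overlap. Mef2a and Mef2c passed with dim genes left out, with 16 added before log2 and with the variance prior that follows the level, and Hdac7 with that prior alone.

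Calcineurin and its partners gave 0 of 15 in either direction by limma beside the 4 members on that list, with a median log2 fold change of 0.09. Calm2, 1 of 3 genes that encode calmodulin, stood at 0.33 (adjusted p = 0.0885) and Ppp3cc, a catalytic subunit of calcineurin, at -0.16 (adjusted p = 0.330). Calm2 passed in the same 3 settings as Mef2a. Of 16 NFAT kinases and export factors 0 passed. Dyrk2, which phosphorylates NFAT, was nearest at -0.29 (adjusted p = 0.0799), and it passed in 5 of the 14 alternatives, among them repeated quantile normalization (0.0453) and array weights (0.0404). It was followed by Dyrk3 (0.21, adjusted p = 0.288), Gsk3b (0.13, adjusted p = 0.500) and Homer3 (-0.10, adjusted p = 0.639). Of 14 serum response, ternary complex and CREB factors 0 passed, with Crtc2, a calcineurin-regulated coactivator of CREB, at 0.42 (adjusted p = 0.0936), Crem at 0.35 (adjusted p = 0.123), Mrtfb at 0.23 (adjusted p = 0.159) and Ep300 at 0.21 (adjusted p = 0.275). Crtc2 passed in the same 3 settings as Mef2a, and Crem in 2 of them, not with 16 added. Of these 14 factors 5 lay wholly higher with Blnk and 0 wholly lower. The counts were 6 and 1 of the 19 genes of the calcineurin list, with its 4 members, and 2 and 1 of the 16 NFAT kinases and export factors. Over all genes 11.8% lay wholly higher and 8.15% wholly lower.

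Genes of calcium entry and calcium stores had 1 of 19 up and 1 down, with a median of -0.02. Over all genes 2.51% rose and 1.10% fell. Orai1, the pore of the store-operated calcium channel, rose from 141 ± 5.51 to 185 ± 8.39 (SD, n = 3; log2 0.39, limma adjusted p = 0.0261), but lost the call whichever array was dropped (adjusted p of 0.0652 to 0.104). Its relative Orai2 stood at 0.30 (adjusted p = 0.0586) and the calcium pump Atp2a3 at 0.27 (adjusted p = 0.0589). Both passed with array weights (0.0322 and 0.0398) and in the same 3 settings as Mef2a. Orai2 also passed with all single-gene probes of a gene averaged. Plcg1, the phospholipase C gamma best known from T cells, fell from 631 ± 14.2 to 392 ± 16.9 (log2 -0.69, adjusted p = 0.00153) and passed with each array left out. Its relative Plcg2 went the other way, at 961 ± 60.2 and 1134 ± 52.7 (log2 0.24). It did not pass (limma adjusted p = 0.175), though its groups did not overlap. On that list 4 of the 19 genes lay wholly higher and 2 wholly lower, where 20.0% of all genes had groups without overlap.

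Other immediate-early genes split by direction: 2 of 25 rose, 3 fell, and the list median was 0.15. The shares over all genes were 2.51% up and 1.10% down. Klf2, a quiescence factor, rose by 0.96 and Btg2, an antiproliferative gene, by 0.93, while Fosb (-0.82) and Atf3 (-0.50), partners in AP-1 dimers, and Myc (-0.44) fell (limma adjusted p of 0.00338 to 0.0173). Klf2 passed with each array left out. Btg2 and Myc passed only without Blnk 1 among these (up to 0.110 and 0.0914), Fosb not without pMIG 3 (0.0572), Blnk 1 (0.0601) or Blnk 3 (0.0552), and Atf3 not without pMIG 3 (0.0568). Without pMIG 3 the list thus had 1 up and 0 down, and without Blnk 1 it had 3 up and 2 down. Ier5 (0.49, limma adjusted p = 0.0560) and Fos (-0.47, limma adjusted p = 0.201) did not pass, but their groups did not overlap. Of the 25 genes 5 lay wholly higher with Blnk and 4 wholly lower, against 11.8% and 8.15% of all genes.

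Of 26 lymphocyte genes known as targets of EGR, NR4A or NFAT factors, 5 rose and 0 fell, with a median of 0.15. Beside this, 2.51% of all genes rose and 1.10% fell. In 12 of the 26 the Blnk samples lay wholly higher and in 3 wholly lower, against 11.8% and 8.15% of all genes. The list was chosen with earlier results of these data known, so its counts are no test of whether targets rose. The largest estimates of the list exceeded those of all 10 factors, but they are extremes picked from 26 genes. The chemokine Ccl3 rose from 227 ± 26.8 to 1471 ± 103 (SD, n = 3), the interleukin-2 receptor chain Il2ra from 248 ± 25.3 to 1065 ± 161 and the inhibitory receptor Pdcd1 (PD-1) from 42.3 ± 1.53 to 139 ± 17.0, each with any 1 array left out. Irf4 rose by 0.40 (limma adjusted p = 0.0164), but among the single arrays left out it passed only without pMIG 2 (0.0483). Ccl4, named after its value was seen, rose by 0.43 (adjusted p = 0.0364) and passed with no array left out (adjusted p of 0.0531 to 0.164). Without an array other than pMIG 2, 3 of the 26 rose. With dim genes left out, and with 16 added before log2, 8 rose and 1 fell, and with the variance prior that follows the level 8 rose and 2 fell. Many of these genes also respond to NF-kB and STAT factors, so the list is not specific to the 3 families.

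**Figure D5:**
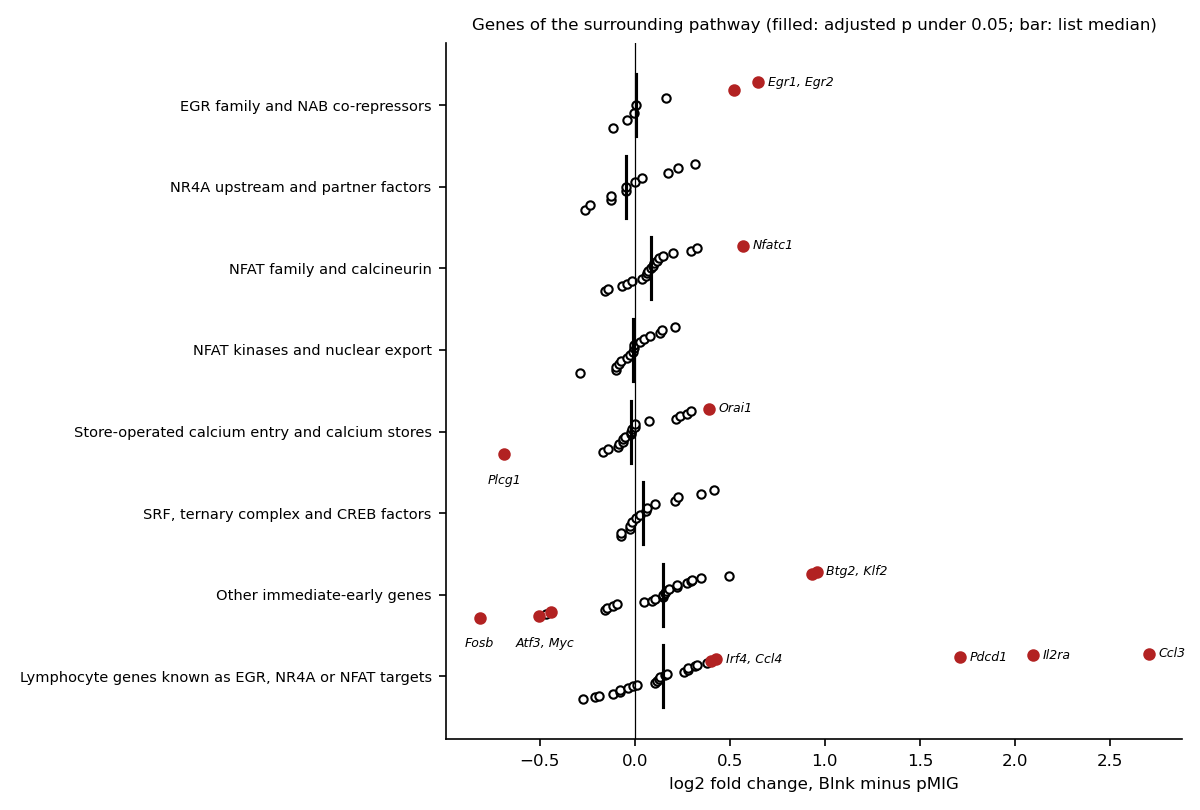
Log2 fold change (x axis, Blnk minus pMIG) of the genes of 8 pathway lists (y axis); filled red points with names passed at an adjusted p under 0.05, and the vertical bar is the list median. Points of the regulators cluster around 0, and the points furthest to the right, Pdcd1, Il2ra and Ccl3, are in the list of known targets.

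The genes whose pattern over the 6 arrays was most like that of the leading member of each family were found by the root mean square difference between log2 profiles, each centred on its own mean. Closest to Egr2 were Gbp5, an interferon-inducible GTPase (0.060), Snn (0.071) and the LIM-domain factor Lmo4 (0.081). Closest to Nr4a1 were Pepd (0.020), Pdcd2 (0.022) and the histone demethylase Kdm1b (0.024). Closest to Nfatc1 were Cmah (0.046), Pecam1 (0.047) and Themis2 (0.049), a signalling adaptor of B cells. All 9 rose (limma adjusted p between 0.00198 for Lmo4 and 0.0416 for Pdcd2), which follows from the choice of a like pattern. Pepd and Pdcd2 did not pass after repeated quantile normalization (0.0537 and 0.0556) or with arrays centred on their medians (0.0817 and 0.0965). Pepd, Pdcd2 and Kdm1b passed with no array left out, Gbp5 only without pMIG 1, and the other 5 with each array left out.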

How the data were processed

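Each of the 6 samples was hybridised to its own Affymetrix array. The deposited values are linear intensities, rounded to whole numbers, for 35421 probes. Per the submitters' processing notes RMA was used, with no version given. The planned test was on log2 values, so log2 was taken with nothing added. Probes were named from the platform annotation: 21789 had 1 gene symbol, 1621 several and 12011 were not listed. The brightest single-gene probe stood for a gene, which gave 19938 genes. For the comparison of groups, limma 3.58.1 (lmFit, eBayes; R 4.3.3) was fitted over all genes with no term besides group, with Benjamini-Hochberg adjustment and a threshold of 0.05. The script was tested on simulated data. The number of arrays limits the precision.

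The members and the gene lists were chosen with earlier results of these data known. Of 201 list entries 191 were measured, and the others were not analysed here. Named genes were the 10 members, Blnk, up to 4 genes of each pathway list with the smallest adjusted p, the 2 brightest of each marker list and 3 genes most like the leading member of each family. Other list genes named, and the ratio tests, were chosen after the data were seen. The alternatives were a replicate block, 2 other normalizations, a filter on dim genes, an offset of 16, averaged probes, another variance prior, array weights and each array left out.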

Additional observations from a re-analysis of the deposited data

How the results depend on the processing

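Leaving out 1 array gave 1 to 3 of the 10 genes past the threshold in place of 4: 3 without pMIG 1, 2 without pMIG 2, Blnk 1, Blnk 2 or Blnk 3, and 1, Nfatc1, without pMIG 3. Over all genes the same step gave 267 to 437 in place of 720. Fewer arrays weaken the test by construction. Leaving out dim genes gave 1228 genes over all, adding 16 before log2 gave 1100, and the variance prior with a trend gave 1539; Nfatc3 passed in these 3. In them the immediate-early list had 4, 4 and 5 up, and 3 down in each. Repeated quantile normalization and centring on medians lowered the share of calls that were upward from 69.4% to 55.7% and 58.9%, and both lost Nr4a1. The median log2 fold change of all genes moved from 0 to -0.033 with quantile normalization and to -0.035 with centring.

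The labels do not say whether the numbers 1 to 3 pair the samples. Over all genes, the deviations of same-numbered samples from their group means correlated at -0.19, 0.06 and -0.12. Of 6 samples 0 correlated best with their own number. With group means of 3 arrays this does not settle whether the samples were paired. With the replicate block 289 genes and 3 of the 10 members passed, and Nr4a1 did not (adjusted p = 0.163). Of the other named genes, Cd79a (0.176), Orai1 (0.141), Atf3 (0.0755), Myc (0.0975), Irf4 (0.0997), Ccl4 (0.0923), Gbp5 (0.0617), Pepd (0.161), Pdcd2 (0.169) and Kdm1b (0.119) did not pass with the block, which left 2 up and 1 down of the 25 other immediate-early genes and 3 up of the 26 known targets.

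Signs turned, among the named genes followed, for 4 genes that did not pass. Egr3 stood at -0.050 after quantile normalization, at -0.030 with arrays centred, and from -0.039 without pMIG 2 or pMIG 3 to 0.093 without pMIG 1, with any 1 array left out. Over the same steps Nfatc2 ran from -0.0087 (without pMIG 3) to 0.14, Rcan1 from -0.011 (without Blnk 1) to 0.12 and Egr4 from -0.25 to 0.070 (without pMIG 1). The cause was not tested. For Nr4a3 the interval of -0.19 to 0.49 does not show that it was unchanged.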
